A study of Mus musculus with 8 samples.

Results

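Cytosolic nucleic acid sensors are the proteins with which a cell recognises RNA or DNA of a virus, or its own misplaced nucleic acid, inside the cytoplasm. Their mRNAs were followed in mouse regulatory T cells (Tregs) as 10 named genes: the RIG-I-like receptors Ddx58, Ifih1 and Dhx58, the oligoadenylate synthetase (OAS) genes Oas1a, Oas3, Oasl1 and Oasl2, the kinase gene Eif2ak2, and Zbp1 and Tmem173. They were chosen by gene symbol, and all 10 were found among the 28239 symbols of the count table. The study asked how 12/15-lipoxygenase, encoded by Alox15, bears on Treg differentiation. Naïve CD4+ T cells were taken by immunomagnetic negative selection from spleens of 4 wild type (WT) and 4 Alox15-/- mice, all labelled C57BL/6. The methods give an age of 10 to 12 weeks and both sexes for the mice of the whole study, not per library. The T cells were cultured for 2 days with IL-2 at 100 U/ml, TGF-β at 5 ng/ml and 1 CD3/CD28 activation bead per cell, and both groups received all of these agents. The WT and Alox15-/- mice came from different suppliers, so genotype and mouse source cannot be told apart, and a germline knockout affects every cell of the mouse and not T cells alone. The cells at day 2 are a differentiating culture that was not sorted again before RNA extraction.

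The sensors work in parallel branches. RIG-I (Ddx58) and MDA5 (Ifih1) bind viral RNA and signal through MAVS to the kinases TBK1 and IKKε and the factors IRF3 and IRF7, which switch on interferon genes, while LGP2 (Dhx58) modulates both receptors. OAS enzymes bind double-stranded RNA and make a second messenger that leads to RNA decay; PKR (Eif2ak2) binds the same kind of RNA and halts translation through eIF2α. ZBP1 binds Z-form nucleic acid and can drive necroptosis through RIPK3 and MLKL, and STING (Tmem173) is the adaptor that receives the signal of the DNA sensor cGAS. Most of these genes are themselves interferon-stimulated, so that resting cells hold little of the mRNA.

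Massive analysis of cDNA ends (MACE) counts 1 read near the 3′ end of each transcript. The 8 libraries held 3723151 to 9538962 counts, and their median was 6417785 for WT and 4794416 for Alox15-/-. Levels are given as CPM, the count of a gene scaled to a common library size with TMM factors, and are compared only within a gene. Alox15 itself was at 70.1, 68.8, 63.4 and 65.0 CPM in the libraries labelled Alox15-/- (replicates 1 to 4) and at 1.87, 2.55, 7.73 and 8.98 CPM in WT. The gene thus goes against the label of the first group, with a log2 difference of 3.65 (edgeR adjusted p = 1.08e-05). A 3′ read outside the disrupted part of a gene does not check a knockout, and the disrupted part is not given in the sources used here, so every direction below is that of the libraries labelled Alox15-/-. All 10 T cell markers were measured, Foxp3 among them at 92.9 ± 17 against 124 ± 47.2 CPM. They summed to 3563 to 3904 CPM in the libraries labelled Alox15-/- and to 3921 to 4129 CPM in WT, without overlap. In the edgeR test 0 of the 10 passed and 2 had an unadjusted p under 0.05. These were Cd4, which was lower (log2 difference -0.32), and Cd3g, which was higher (0.31).

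None of the 8 sensors that could be tested passed the threshold, and the same test called 158 of 12700 genes, or 1.24% (1.05% with the higher and 0.197% with the lower level in the libraries labelled Alox15-/-). A call here means an edgeR quasi-likelihood p under 0.05 after Benjamini-Hochberg adjustment over all genes tested, and Oas1a and Oasl1 were below the filter of 2 CPM in at least 4 libraries. Before adjustment 3 of the 8, namely Oas3, Oasl2 and Zbp1, had a p under 0.05, all with the higher level in the libraries labelled Alox15-/-, whereas 7.84% of all genes did so in either direction and 4.46% in that direction. DESeq2, limma-voom and edgeR with DESeq2 size factors, which called 1.53%, 1.1% and 1.25% of all genes, also called 0 of the members, with 3 at an unadjusted p under 0.05 in each. The edgeR likelihood-ratio and exact tests called 1 member, Oas3, beside 1.76% and 1.72% of all genes, and edgeR with no filter on low counts called 3 beside 1.37%. Of the 8 sensors, 5 had a positive and 3 a negative log2 difference, with a median of 0.22 beside -0.0075 over all genes tested, of which 48.2% were positive. The positive values came mainly from Oas3, Oasl2 and Zbp1, as the plot of each library shows.

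**Figure D1:**
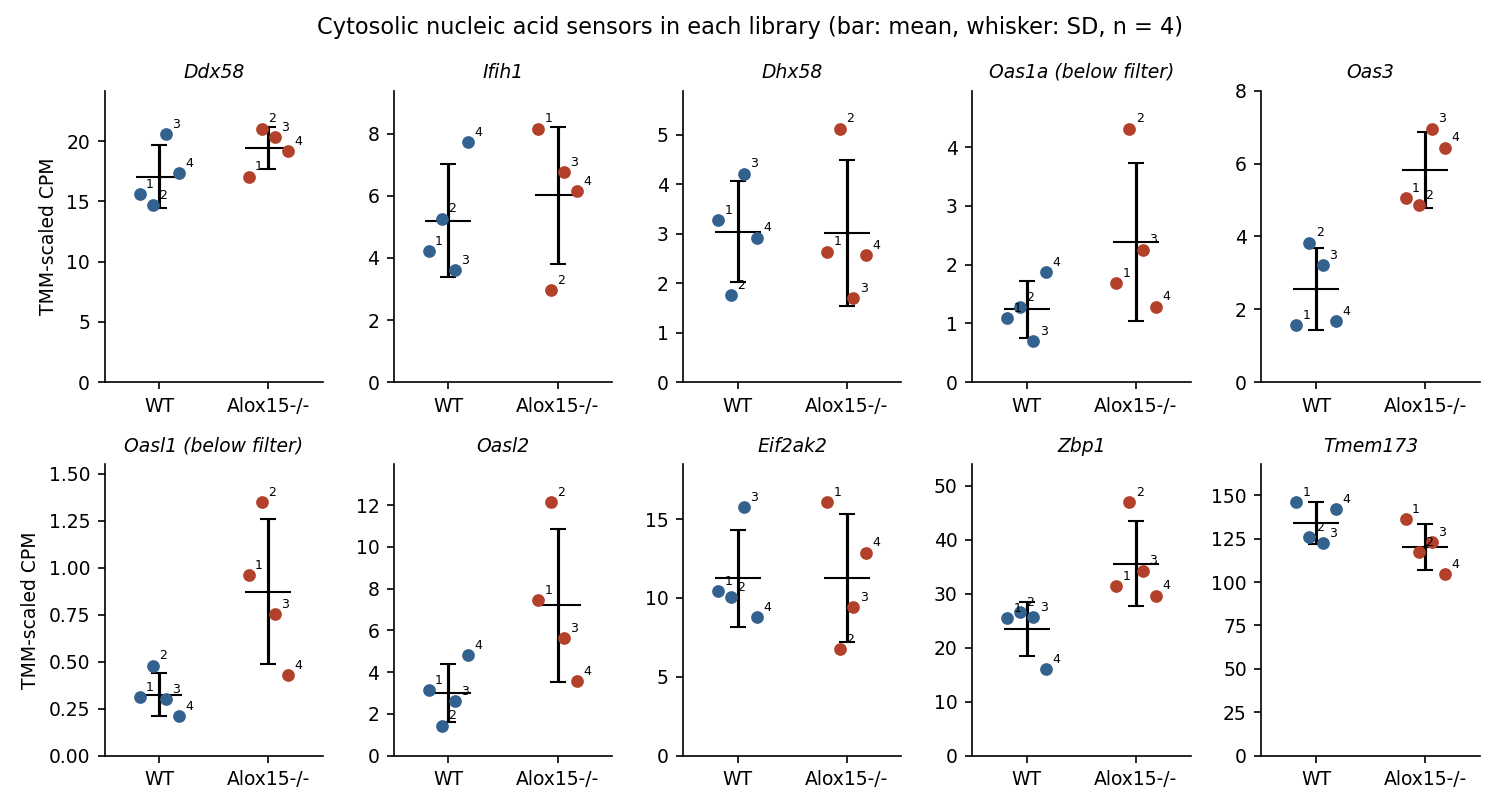
Level of each of the 10 sensor genes (y axis, TMM-scaled CPM, from 0, with its own scale per gene) in the 4 WT and the 4 libraries labelled Alox15-/-; points carry the replicate number, the bar is the mean and the whisker the SD. The groups do not overlap for Oas3 and Zbp1, whereas Oasl2 has 3 of 4 points above all WT points, and the points of Ddx58, Ifih1, Dhx58, Eif2ak2 and Tmem173 are intermingled.

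The RIG-I-like receptors did not differ beyond the spread between libraries. Ddx58 (ENSMUSG00000040296.15, GRCm38 chr4:40203773-40239828, minus strand), which encodes the receptor for RNA with a 5′ triphosphate, was at 17.0, 21.0, 20.3 and 19.2 CPM in the libraries labelled Alox15-/- and at 15.6, 14.7, 20.6 and 17.3 CPM in WT. All 4 libraries labelled Alox15-/- lay at or above the WT mean of 17.0 ± 2.60 CPM (SD, n = 4), yet WT replicate 3 was higher than 3 of them. The log2 difference was 0.18 with an SE of 0.15 and a 95% interval of -0.15 to 0.51 (edgeR adjusted p = 0.838), and leaving out 1 library gave 0.11 (without WT replicate 2) to 0.30 (without WT replicate 3). With 71 to 205 reads per library, the coefficient of variation of Ddx58 was 9.0% and 15.2% in the 2 groups, against 10.1% and 9.13% from counting error alone, and its interval was the narrowest of the 3 receptors.

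Ifih1 (ENSMUSG00000026896.14, chr2:62595798-62646255, minus strand), the receptor for long double-stranded RNA, was at 8.16, 2.97, 6.77 and 6.15 CPM against 4.21, 5.26, 3.61 and 7.73 CPM in WT. The lowest of the 8 values and the highest both came from libraries labelled Alox15-/-. Its log2 difference was 0.26 with a 95% interval of -0.39 to 0.92 (edgeR adjusted p = 0.886), and leaving out 1 library gave 0.11 (without Alox15-/- replicate 1 or WT replicate 3) to 0.50 (without WT replicate 4), with 0.46 without Alox15-/- replicate 2. Dhx58 (ENSMUSG00000017830.15, chr11:100694884-100704271, minus strand), the regulator without a signalling domain, was at 2.64, 5.13, 1.69 and 2.58 CPM against 3.28, 1.75, 4.21 and 2.92 CPM in WT. Here too the groups overlapped, with means of 3.01 ± 1.48 and 3.04 ± 1.02 CPM (SD, n = 4 each). The log2 difference of -0.10 had a 95% interval of -0.87 to 0.67 (edgeR adjusted p = 0.971), and its sign turned when replicate 3 of either group was left out. Dhx58 lies 30.3 Mb from Alox15 on the same chromosome and its 3′ end overlaps the antisense gene Dhx58os, so reads of the pair can be told apart only with strand, which the sources used here do not give for the counting. A log2 difference of 0.66 for Ddx58, 1.33 for Ifih1 and 1.56 for Dhx58 would have been needed for a call at the errors measured, so smaller changes could not be called. For Ifih1 and Dhx58 the coefficients of variation (36.5% and 34.9%, 49.1% and 33.4%) exceeded those of counting alone (18% and 17.3%, 26.5% and 21.3%).

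Among the OAS genes, Oas3 and Oasl2 had the largest log2 differences of the tested sensors. Oas3 (ENSMUSG00000032661.9, chr5:120753098-120777661, minus strand) encodes the long OAS enzyme with repeated synthetase domains. It was at 5.04, 4.86, 6.96 and 6.44 CPM in the libraries labelled Alox15-/- and at 1.56, 3.83, 3.21 and 1.67 CPM in WT. Every library labelled Alox15-/- was above every WT library, which held for 2.72% of all genes tested, and the means were 5.82 ± 1.04 and 2.57 ± 1.13 CPM (SD, n = 4 each). The fold was 2.23 with a 95% interval of 1.42 to 3.49, the log2 difference 1.16 with an SE of 0.30 (edgeR unadjusted p = 0.0017, adjusted p = 0.110). A two-sided exact permutation test of the 8 levels gave p = 0.0286, the smallest that 4 against 4 libraries allow. Oas3 passed in 3 of 19 fits: without a filter on low counts (adjusted p = 0.0194) and by the edgeR likelihood-ratio (0.0117) and exact (0.0125) tests. The last 500 bases of its full-length transcript align over at least 100 bases and at 90% identity or more with transcripts of 50 other genes, so its 8 to 45 reads per library may be split or shared and the level is uncertain.

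Oasl2 (ENSMUSG00000029561.17, chr5:114896936-114912234, plus strand) encodes an OAS-like protein with ubiquitin-like domains. Its levels were 7.44, 12.1, 5.64 and 3.58 CPM in the libraries labelled Alox15-/- and 3.12, 1.44, 2.61 and 4.80 CPM in WT. The groups overlapped through replicate 4 of each: 3 of 4 libraries labelled Alox15-/- were above all WT libraries, and the fourth was below WT replicate 4. The fold was 2.38, the log2 difference 1.25 with an SE of 0.39 and a 95% interval of 0.42 to 2.08 (edgeR unadjusted p = 0.0057, adjusted p = 0.255), and the exact permutation p was 0.0571. Its coefficient of variation was 50.7% in the libraries labelled Alox15-/- and 46.7% in WT, against 17.5% and 22.6% from counting alone. Without Alox15-/- replicate 2, its highest library, the log2 difference was 0.90, and the range over the 8 fits that each left out 1 library was 0.90 to 1.52, with adjusted p from 0.0764 to 0.659. Oasl2 passed in 1 of 19 fits, the one with no filter (adjusted p = 0.0038).

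Oas1a (ENSMUSG00000052776.10, chr5:120896256-120907521, minus strand), which encodes a short OAS enzyme, had 75 reads in all 8 libraries together. It was at 1.68, 4.32, 2.26 and 1.29 CPM in the libraries labelled Alox15-/- and at 1.09, 1.28, 0.70 and 1.88 CPM in WT, and the groups overlapped. The means of 2.39 ± 1.35 and 1.24 ± 0.490 CPM (SD, n = 4 each) gave p = 0.143 in the two-sided exact permutation test. Oas1a entered 2 other edgeR fits, with edgeR's own filter (log2 difference 0.95, unadjusted p = 0.0497, adjusted p = 0.640) and with no filter (0.92, unadjusted p = 0.0428, adjusted p = 0.680), and was there the fourth member with an unadjusted p under 0.05. The last 500 bases of Oas1a are 98% identical to those of Oas1g, so reads of the 2 genes may have been exchanged, and the sum of both was 3.92 ± 1.86 CPM against 2.44 ± 1.08 CPM (exact permutation p = 0.257). Oasl1 (ENSMUSG00000041827.15, chr5:114923240-114937915, plus strand), a translational regulator of Irf7 mRNA, had 25 reads in all, 16 in the libraries labelled Alox15-/- and 9 in WT. With 1 to 5 reads per library no fold is given, and the exact permutation p was 0.0571. The 4 OAS members lie in 2 clusters on chromosome 5, Oasl1 next to Oasl2 and Oas1a near Oas3.

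Eif2ak2 (ENSMUSG00000024079.4, chr17:78852564-78882573, minus strand), the gene of PKR, had nearly equal means of 11.3 ± 4.07 and 11.3 ± 3.08 CPM (SD, n = 4 each). Its values were 16.1, 6.75, 9.41 and 12.9 CPM in the libraries labelled Alox15-/- and 10.5, 10.05, 15.8 and 8.77 CPM in WT, so the libraries overlapped throughout. The log2 difference of -0.011 had a 95% interval of -0.54 to 0.52 (edgeR adjusted p = 0.998), and its sign was not stable to the scaling or to a left-out library. A change of 1.08 on the log2 scale would have been needed for a call.

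Zbp1 (ENSMUSG00000027514.14, chr2:173206612-173218923, minus strand), the sensor of Z-form nucleic acid, was higher by 1.5-fold in the libraries labelled Alox15-/-, without passing the adjusted threshold. The levels were 31.5, 47.0, 34.2 and 29.6 CPM against 25.4, 26.6, 25.6 and 16.1 CPM in WT. The groups did not overlap, although 29.6 CPM in Alox15-/- replicate 4 and 26.6 CPM in WT replicate 2 were close, and the exact permutation p was 0.0286. The log2 difference was 0.58 with an SE of 0.18 and a 95% interval of 0.20 to 0.96 (edgeR unadjusted p = 0.0052, adjusted p = 0.240). Leaving out Alox15-/- replicate 2, the highest library, or WT replicate 4, the lowest, reduced it to 0.43 and 0.45. Zbp1 passed in 1 of 19 fits, the one with no filter (adjusted p = 0.0244). With 77 to 255 reads per library it was measured more deeply than any OAS member, and its coefficients of variation of 22% and 21% exceeded the 7.59% and 7.77% of counting error.

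Tmem173 (ENSMUSG00000024349.10, chr18:35733679-35740554, minus strand), the gene of STING, gave the most reads of the 10 members, 435 to 1218 per library, and the narrowest interval. It was at 136, 117, 123 and 104 CPM in the libraries labelled Alox15-/- and at 146, 126, 122 and 142 CPM in WT. The groups overlapped, and the log2 difference of -0.16 (SE 0.11, edgeR adjusted p = 0.787) pointed the other way from that of Oas3 and Zbp1. The 95% interval ran from -0.39 to 0.07 and the values with 1 library left out from -0.22 (without Alox15-/- replicate 1) to -0.09 (without Alox15-/- replicate 4), while a difference of 0.47 would have been needed for a call.

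**Figure D2:**
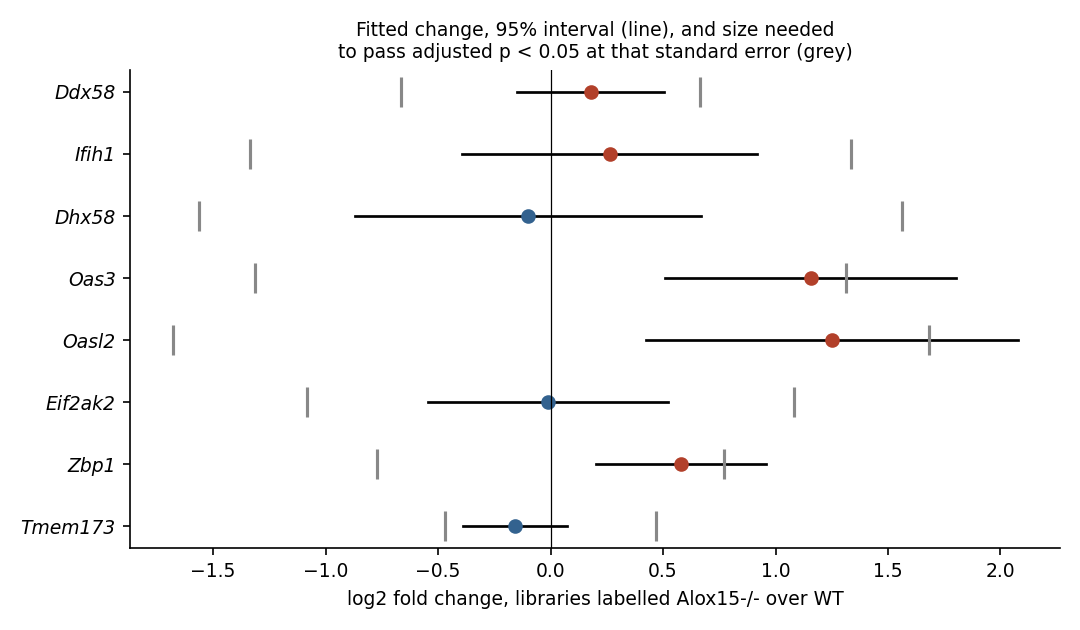
Log2 difference (libraries labelled Alox15-/- over WT, x axis) of the 8 tested sensors, red where positive and blue where negative, with its 95% interval from the edgeR fit as a line and the size needed for a call as grey marks. The intervals of Oas3 (0.51 to 1.80), Oasl2 (0.42 to 2.08) and Zbp1 (0.20 to 0.96) lie above 0 but their points lie inside the grey marks (1.31, 1.68 and 0.77), and the intervals of the other members include 0.

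The RefSeq promoter table (GRCm38.p6, 250 bases before to 50 after a transcript start) held 7 of the 10 members, all but Dhx58, Zbp1 and Tmem173. The interferon-stimulated response element (ISRE), to which the interferon-activated complex ISGF3 and IRF proteins bind, was searched on both strands as its core, GAAA and GAAA with any 2 bases between them (TTTC and TTTC on the other strand). It was present in 5 of the 7, in Ddx58, Ifih1, Oas1a, Oas3 and Eif2ak2, and in 3.44% of all 32851 promoters of that length. The windows from 100 bases before to 30 bases after the start are printed for Oas3 and Oasl2, the members with the largest differences, and for Ddx58 and Eif2ak2, whose differences were near 0, with the match in capitals.
Oas3, chr5:120777630-120777759, minus strand: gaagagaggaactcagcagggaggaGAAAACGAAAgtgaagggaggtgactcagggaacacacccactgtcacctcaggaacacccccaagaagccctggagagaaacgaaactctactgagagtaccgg
Oasl2, chr5:114896834-114896963, plus strand: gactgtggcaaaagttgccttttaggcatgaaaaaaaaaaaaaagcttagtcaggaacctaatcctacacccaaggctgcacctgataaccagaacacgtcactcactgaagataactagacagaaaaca
Ddx58, chr4:40239796-40239925, minus strand: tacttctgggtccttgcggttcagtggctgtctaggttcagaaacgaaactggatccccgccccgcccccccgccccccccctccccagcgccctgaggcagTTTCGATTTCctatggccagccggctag
Eif2ak2, chr17:78882543-78882672, minus strand: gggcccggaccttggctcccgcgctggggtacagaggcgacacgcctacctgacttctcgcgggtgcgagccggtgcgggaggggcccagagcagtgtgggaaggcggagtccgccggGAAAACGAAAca

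The same 10 letters, GAAAACGAAA, stood 75 bases before the start of Oas3 and 19 bases after the start of Eif2ak2, 2 genes whose log2 differences were 1.16 and -0.011. The Ddx58 match lies on the other strand, 3 to 12 bases after the start. Oas1a held a pair of overlapping matches between 20 and 5 bases before its start, and Ifih1 a match 33 bases after its start. The longer form, the core followed by CT, occurred in Ddx58 and Oas1a and in 0.271% of all promoters. No match was found in the windows of Oasl1 and Oasl2, which says only that these letters are not in those windows. Among the tested members with an entry, the log2 differences were 0.18 for Ddx58, 0.26 for Ifih1, 1.16 for Oas3 and -0.011 for Eif2ak2 with the core, and 1.25 for Oasl2 without it; the relation was not tested.

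**Figure D3:**
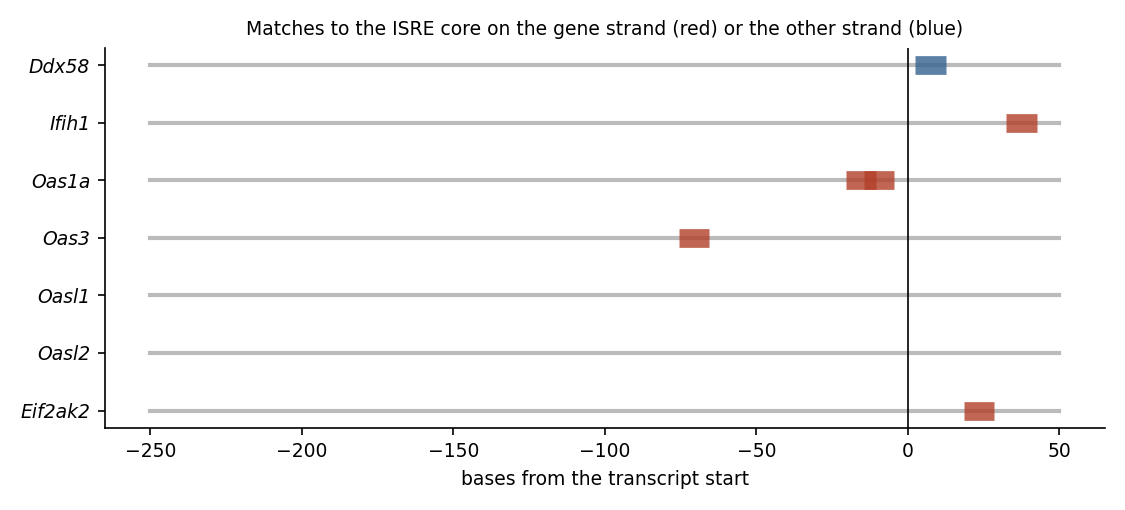
Position of each ISRE core match (x axis, bases from the transcript start) in the promoter windows (grey) of the 7 members with a RefSeq entry, red on the strand of the gene and blue on the other. Of the 7 genes, 5 have a match, and the rows of Oasl1 and Oasl2 are empty.

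Around the sensors, 150 genes of the pathway were listed, of which 109 were tested and 3 passed, all higher in the libraries labelled Alox15-/-: Irf7, Mlkl and Usp18. Over all genes tested 1.24% passed, 7.84% had an unadjusted p under 0.05 and 4.46% had one with the higher level in these libraries. In direction they divided into 53 positive and 56 negative log2 differences, the median being -0.01 beside -0.0075 over all genes tested. Unadjusted, 15 of the 109 pathway genes had a p under 0.05, with 13 of them higher. Irf7, the factor that amplifies interferon transcription downstream of MAVS and STING, rose from 4.48 ± 1.64 to 11 ± 1.9 CPM (SD, n = 4 each), a log2 difference of 1.26 with an SE of 0.26 (edgeR adjusted p = 0.0226). Its levels of 12.2, 13.0, 9.78 and 8.87 CPM were all above the WT levels of 3.28, 2.87, 6.12 and 5.64 CPM. Irf7 lost its call without Alox15-/- replicate 1, 2 or 3 or WT replicate 1 or 2, with adjusted p over the 8 such fits from 0.0119 to 0.103, and with the replicate number as a block (0.0519).

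Mlkl, the pore-forming protein that executes necroptosis downstream of ZBP1, rose from 2.91 ± 0.916 to 8.37 ± 3.19 CPM (SD, n = 4 each), a log2 difference of 1.48 with an SE of 0.31 (edgeR adjusted p = 0.0265). Each library labelled Alox15-/- (7.68, 12.7, 8.09 and 5.01 CPM) was above each WT library (3.28, 3.99, 2.51 and 1.88 CPM). The call was lost without Alox15-/- replicate 1, 2 or 3 or WT replicate 1 or 3, with adjusted p from 0.0698 to 0.109 in those fits, and in limma-voom (0.0515). The kinase between the 2 proteins, Ripk3, was at 34.1 and 35.6 CPM with a log2 difference of -0.07 (edgeR adjusted p = 0.934). Usp18, an interferon-induced protease that restrains the interferon receptor, rose from 5.89 ± 0.710 to 16 ± 7.7 CPM (SD, n = 4 each), a log2 difference of 1.42 with an SE of 0.28 (edgeR adjusted p = 0.0166). It lost its call without Alox15-/- replicate 3 (0.0733) or WT replicate 1 (0.0796).

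**Figure D4:**
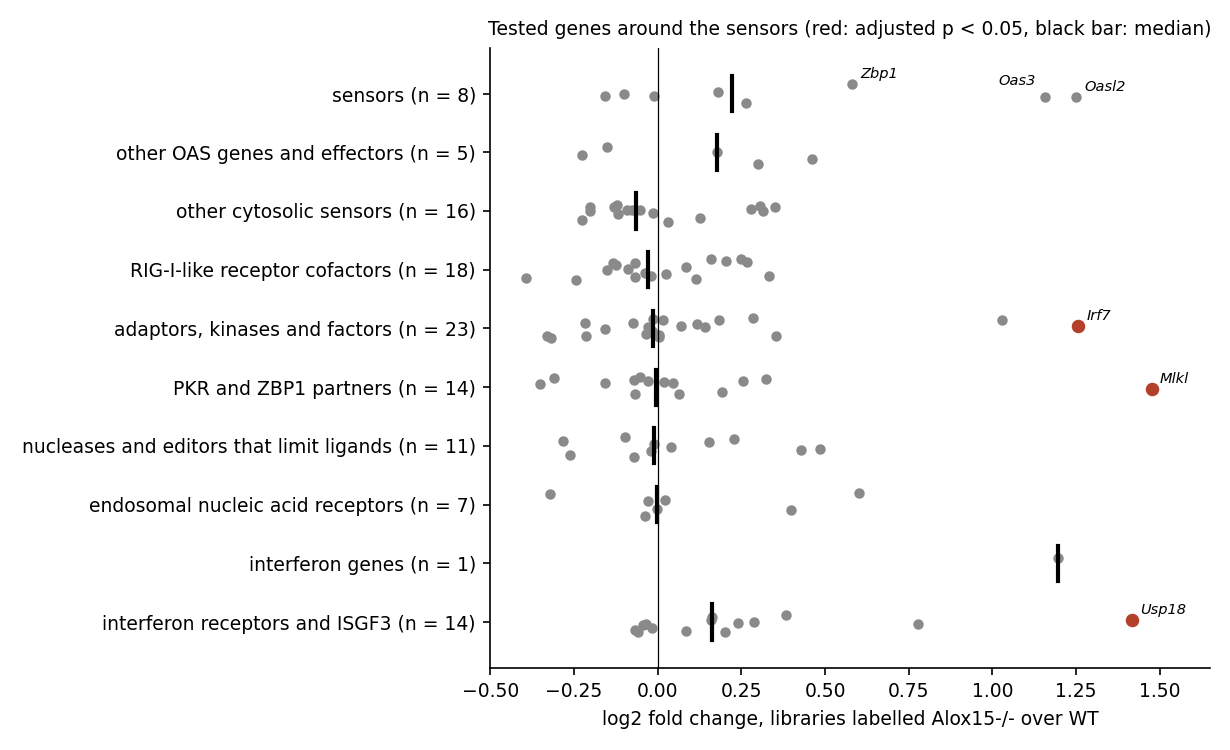
Log2 difference (libraries labelled Alox15-/- over WT, x axis) of each tested gene, 1 row per pathway list with the sensors first; black bars are list medians, red points passed the edgeR threshold, and vertical offsets only separate points. The 3 red points are Irf7, Mlkl and Usp18, and Oas3, Oasl2 and Zbp1 are named in the row of the sensors.

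The calls were spread over 3 of the 9 lists. Of the other OAS genes and their effectors, 5 of 11 were tested, 0 passed edgeR and 1 had an unadjusted p under 0.05. Of 16 other cytosolic sensors tested, 0 passed and 1 was under 0.05 unadjusted, and Mb21d1, the gene of cGAS, was at 7.46 and 5.85 CPM (edgeR adjusted p = 0.858). None of the 18 tested cofactors of the RIG-I-like receptors passed, and none was under 0.05 unadjusted. In the list of adaptors, kinases and factors, 1 of 23 passed, which was Irf7, and 3 had an unadjusted p under 0.05. Mavs, the adaptor of the RIG-I-like receptors, was at 25.3 ± 0.911 against 31.5 ± 4.49 CPM, with every library labelled Alox15-/- below every WT library (edgeR unadjusted p = 0.0293, adjusted p = 0.560). Irf3 had a log2 difference of -0.02 (edgeR adjusted p = 0.984). Mlkl was the 1 call among 14 partners of PKR and ZBP1, and Eif2s1, the PKR substrate, had a log2 difference of -0.05.

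Of 11 nucleases and editors that limit the ligands of the sensors, 0 passed edgeR and 2 were under 0.05 unadjusted. The nearer to the threshold was Samhd1, a nucleotide hydrolase, at 221 ± 25.6 against 164 ± 14 CPM (SD, n = 4 each), with no overlap between the groups (edgeR adjusted p = 0.0840). Samhd1 passed in 4 of 19 fits. The 7 tested genes of endosomal nucleic acid receptors gave 0 calls and 1 unadjusted p under 0.05. Interferon genes themselves were nearly unmeasured: 3 of 21 were in the table and 1 was tested. This was Ifng, at 11.7 ± 7.02 against 5.2 ± 2.5 CPM with overlapping groups. Its log2 difference was 1.2 (edgeR unadjusted p = 0.0124, adjusted p = 0.385), and it passed in 1 of 19 fits, the one with no filter. Of the 14 interferon receptor and ISGF3 genes tested, Usp18 alone passed, and 4 had an unadjusted p under 0.05, all higher. Members, lists and their limits were chosen with earlier results of these libraries known, so none of these counts is independent evidence.

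The sensors did not move as a block from library to library. Over the 28 pairs of the 8 tested members, the Pearson correlation of log2 CPM across the 8 libraries had a median of -0.01, with 13 pairs positive. The highest value was 0.71 for Oas3 and Zbp1 and the lowest was -0.76 for Oas3 and Tmem173. After subtracting each group's mean the median was -0.06, and Oas3 and Oasl2, the 2 OAS members with the largest differences, correlated at -0.75. These values are descriptions: the 8 libraries are shared by all pairs and low counts add noise to Dhx58, Oas3 and Oasl2. The mean profile of the tested members was most like that of Gm38329 (r = 0.98), Lyst (0.96), Irf7 (0.94) and Abr (0.94) over the 8 libraries. With group means removed the list was Ttll4 (0.95), Ppm1h (0.95), Slc20a1 (0.95), Kat7 (0.94) and Trim37 (0.94), which shares no gene with the first.

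Markers of several other blood cells were higher in the same group of libraries as Oas3, Oasl2 and Zbp1. In bulk RNA, more cells of a type and more RNA per cell cannot be told apart. Summed erythroid markers ranged from 54.9 to 142 CPM in WT and from 923.3 to 3495 CPM in the other group, with 5 of 6 tested markers passing. Mast cell and basophil markers ranged from 145 to 375 CPM against 59.3 to 83.9 CPM (8 of 9 passing), and monocyte, macrophage and neutrophil markers from 64.1 to 413 CPM against 19.7 to 28.0 CPM (4 of 6). Natural killer and γδ T cell markers ranged from 101 to 219 CPM against 37.0 to 55.1 CPM (6 of 7), and eosinophil markers from 21.3 to 73.7 CPM against 1.25 to 10.4 CPM (2 of 2). No sum of these 5 lists overlapped between the groups. By contrast, the plasmacytoid dendritic cell markers (434.8 to 679.7 against 445.9 to 599.9 CPM, 0 of 5 passing edgeR and 1 at an unadjusted p under 0.05), dendritic cell markers (20.9 to 61.5 against 23.6 to 37.4 CPM, 0 of 3 passing and 1 unadjusted) and B cell markers (216 to 314.5 against 215 to 313 CPM, 1 of 4 passing, Ms4a1, which was lower) overlapped. The CD8 T cell markers pointed the other way, with sums of 12 to 21.8 CPM in the libraries labelled Alox15-/- and 21.4 to 31.6 CPM in WT, where Cd8a and Cd8b1 had log2 differences of -0.69 and -0.65 and 0 of 2 passed edgeR, with both at an unadjusted p under 0.05. Every gene of the count table had reads in at least 1 library, so no listed marker in it could be at 0 in all. It held 12 of the 15 listed natural killer and γδ T cell markers and 9 of the 10 erythroid ones. Of the plasmacytoid dendritic cell and dendritic cell markers it held 8 of 10 each.

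Alox15-/- replicate 2 had the highest sums of the natural killer and γδ, monocyte, mast cell and eosinophil lists, and it was also the library with the highest Ddx58, Dhx58, Oas1a, Oasl1, Oasl2 and Zbp1. The same library had the lowest Ifih1 (2.97 CPM) and Eif2ak2 (6.75 CPM) of all 8 libraries and the lowest Oas3 of its group (4.86 CPM), and the erythroid sum was highest in Alox15-/- replicate 3, at 3495 against 3322 CPM. Alox15-/- replicate 4 had the lowest sums of its group for all of these lists, and the lowest Oas1a, Oasl1, Oasl2 and Zbp1 of its group. In that replicate Oas3 was still at 6.44 CPM and Zbp1 at 29.6 CPM, above every WT library, whereas Oasl2 at 3.58 CPM was inside the WT range. The part of other cells in these levels was not tested.

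**Figure D5:**
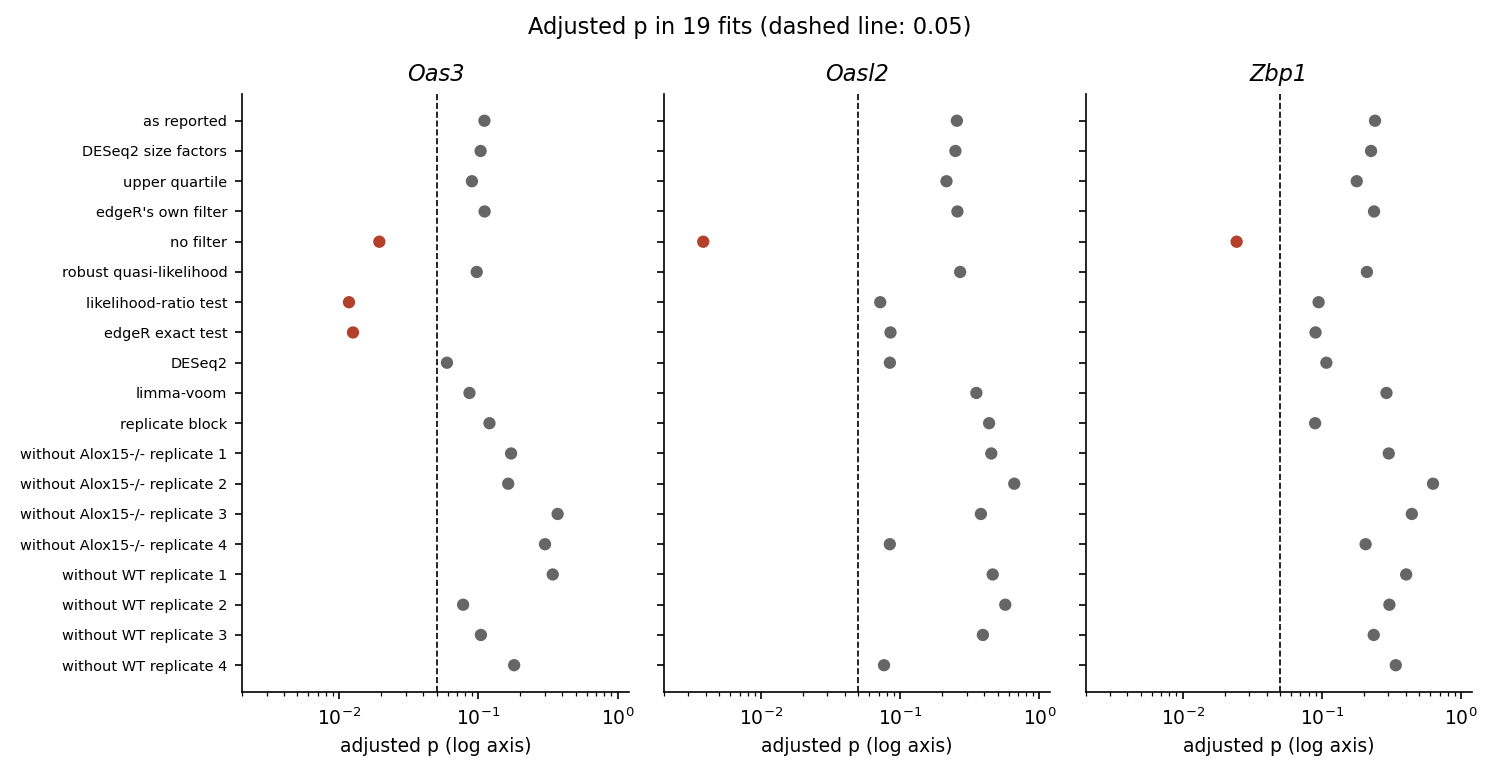
Adjusted p (x axis, log scale) of Oas3, Oasl2 and Zbp1 in each of 19 fits (rows), with a dashed line at 0.05 and red points below it. Oas3 is below the line in 3 fits, Oasl2 and Zbp1 in 1 fit each, the one with no filter on low counts.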

How the data were processed

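The authors deposited 1 table of raw counts per gene symbol for the 8 MACE libraries; the submitters' processing notes name Bowtie, edgeR and GRCm38, and versions, counter and treatment of PCR duplicates are not given in the sources used here. The labels name a small RNA library kit and the methods a MACE kit. Counts were fitted with edgeR 4.0.16 in R 4.3.3 (quasi-likelihood test, TMM, at least 2 CPM in at least 4 libraries, Benjamini-Hochberg over 12700 genes, threshold 0.05), without covariates; DESeq2 1.42.0 and limma 3.58.1 served as alternatives. CPM are counts over the whole library total times its TMM factor. The fit was tested on simulated data. Levels of the OAS members and Zbp1 were also compared with a two-sided exact permutation test, which was the main test for members below the filter. Positions came from GENCODE M21 on GRCm38, promoters from RefSeq on GRCm38.p6, and 3′ ends were compared with blastn 2.17.0. Named genes are all members, Alox15, pathway genes that passed or were most abundant in their list, and the 5 genes closest in profile, of which some are not reported here; other named partners of a sensor were chosen after their values were seen. Members and lists were chosen with earlier results of these data known. The labels number the replicates alike, but same-numbered libraries did not deviate together: the correlations of their deviations were 0.07, 0.17, -0.18 and -0.02, so no block was used. Intervals and edgeR p-values rest on the spread between these libraries, with each gene's own spread drawn toward the trend over all genes tested.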

Additional observations from a re-analysis of the deposited data

Results flagged for a closer look

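Zbp1 in WT replicate 4 was at 16.1 CPM, far below the other 3 WT libraries at 25.4 to 26.6 CPM, with a gap of 0.887 of the group's range where 0.829 is the 95% limit for 4 values. Among the 20 groups of 4 libraries examined for the 10 sensors this was the 1 library marked in this way, and chance marks about 1 group in 20. Without WT replicate 4 the log2 difference of Zbp1 between the libraries labelled Alox15-/- and WT was 0.45 in place of 0.58.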

How the results depend on the processing

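The depth of 1 to 45 reads per library for Oas1a, Oas3, Oasl1, Oasl2 and Dhx58 limits what can be called. With no filter on low counts 3 sensors (Oas3, Oasl2, Zbp1), 6 pathway genes and 388 of all genes passed. The likelihood-ratio test and the edgeR exact test each called 1 sensor (Oas3) and 5 pathway genes, and DESeq2 called 5 pathway genes and 0 sensors. Leaving out 1 library at a time gave 0 sensors each time, 86 to 172 genes in all, 0 to 3 pathway genes and a sensor median of 0.16 to 0.32. Genes in all fell to 95, 86 and 93 without Alox15-/- replicates 1, 2 and 3 and to 105 without WT replicate 2. Dhx58 (-0.10) turned to 0.11 without Alox15-/- replicate 3 and 0.14 without WT replicate 3. Its range over these 8 fits was -0.43 to 0.14. Eif2ak2 (-0.011) turned to 0.019 with upper quartile scaling, and to 0.15, 0.079 and 0.22 without Alox15-/- replicate 2, Alox15-/- replicate 3 and WT replicate 3, with a range of -0.20 to 0.22. With the replicate block 0 sensors, 2 pathway genes (Mlkl and Usp18) and 146 genes in all passed; 1 of 4 libraries labelled Alox15-/- correlated best with its own number. The longer ISRE form matched 2 promoters in place of 5. The sum of Oas1a and Oas1g was chosen after seeing the data. The cause of these shifts was not tested.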
